A study of Mus musculus with 8 samples.

Results

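The VEGF ligands and receptors comprise 5 ligand genes (Vegfa, Vegfb, Vegfc, Vegfd and Pgf), 3 receptor tyrosine kinase genes (Kdr, Flt1 and Flt4) and 2 neuropilin co-receptor genes (Nrp1 and Nrp2). They were taken as every non-control probe whose gene, under its current or an older symbol, was one of these, which gave 16 probes of 10 genes among 55681 probes and 23827 named genes on the array. RNA came from CD31-bearing cells, enriched with magnetic beads from single mouse embryos of the C57Bl/6J background at E12.5 after removal of the liver and brain. CD31 (PECAM-1) marks the surface of endothelial cells, and platelets and some leukocytes bear it too. There were 4 mutant embryos, of genotype Gata2+9.5-/-, and 4 wild type littermates, all from matings of heterozygous parents, with 2 of each genotype in each of 2 litters and 1 one-colour array per embryo. The mutation is carried by every cell of the embryo, and +9.5 is the name of an enhancer inside Gata2, a transcription factor gene of blood and endothelial cells. Mutants 1 and 2 and wild types 1 and 2 were of litter 1, and mutants 3 and 4 and wild types 3 and 4 of litter 2.

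VEGF ligands are secreted dimers that bind receptor tyrosine kinases on endothelial cells. VEGF-A, the product of Vegfa, acts through VEGFR2 (Kdr), the main signalling receptor of blood vessel growth, while VEGFR1 (Flt1) binds VEGF-A, VEGF-B and placental growth factor (Pgf) and, in a soluble form, holds VEGF-A away from VEGFR2. VEGF-C and VEGF-D act on VEGFR3 (Flt4), which serves lymphatic vessels, and the neuropilins bind both ligands and class 3 semaphorins.

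Each gene was read by probes of 60 bases, and 4 genes had several probes at different places of the transcript, so the first 30 bases of the Kdr, Flt1 and Nrp2 probes are given to show that they read separate stretches. Positions are those of the array's design on mm9. Kdr probe 1 was at chr5:76329309-76329368 and Kdr probe 2 at chr5:76330395-76330454, both on the minus strand and designed on NM_010612. Flt1 probe 1 (NM_010228) was at chr5:148373791-148373850, Flt1 probe 2 (ENSMUST00000110529) at chr5:148446872-148446931 and Flt1 probe 3 (AK005502) at chr5:148465976-148466035, all on the minus strand. Whether Flt1 probes 2 and 3 read the soluble form was not annotated. Vegfa had a pair of probes, designed on NM_001025250 (probe 1) and NM_001025257 (probe 2). Nrp2 probe 1 (NM_001077403) was at chr1:62865129-62865188 and Nrp2 probe 2 (NM_001077406) at chr1:62843298-62843357 on the plus strand.
Kdr probe 1: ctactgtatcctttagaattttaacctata
Kdr probe 2: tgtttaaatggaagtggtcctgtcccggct
Flt1 probe 1: aagtaaagaaaagctatcgggattctctgg
Flt1 probe 2: ggagggtactgccgttcctgtgtggtattt
Flt1 probe 3: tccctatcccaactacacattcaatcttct
Nrp2 probe 1: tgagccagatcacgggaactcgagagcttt
Nrp2 probe 2: ggtttctgttggctgtcattgtcatctcca

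The other genes had 1 probe each on mm9. They were Vegfb (NM_011697, chr19:7057245-7057304), Vegfc (NM_009506, chr8:55271533-55271592), Vegfd (NM_010216, chrX:160840395-160840454), Pgf (NM_008827, chr12:86508335-86510337, a stretch that spans an intron), Flt4 (NM_008029, chr11:49465646-49465705) and Nrp1 (NM_008737, chr8:131026650-131026709). Nrp2 probe 3, named Npn2 in the files and designed on an unplaced EST, was well above background on 1 of 8 arrays and was not tested. The other 15 probes were well above background on all 8 arrays, and none was saturated on any array. Levels are log2 of the processed intensity relative to the array's 75th percentile, and levels of different probes are not compared, since probes differ in how strongly they bind.

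Promoters of all 10 genes were matched in RefSeq (GRCm38.p6), in 12 windows of 250 bases that end at an annotated gene start. Those of Kdr (chr5:75978456-75978705), Flt1 (chr5:147726012-147726261) and Vegfa (chr17:46032378-46032627), all on the minus strand, are shown as those of the main receptors and the main ligand of blood vessels. In these, capitals mark GATA words (AGATAA and AGATAG and TGATAA and TGATAG), Ets words (AGGAAG and CGGAAG) and the hypoxia core ACGTG, searched on both strands.
Kdr promoter: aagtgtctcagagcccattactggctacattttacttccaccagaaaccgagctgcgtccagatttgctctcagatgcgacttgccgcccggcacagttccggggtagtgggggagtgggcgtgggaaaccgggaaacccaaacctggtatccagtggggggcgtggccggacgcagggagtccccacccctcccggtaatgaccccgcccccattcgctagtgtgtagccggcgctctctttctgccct
Flt1 promoter: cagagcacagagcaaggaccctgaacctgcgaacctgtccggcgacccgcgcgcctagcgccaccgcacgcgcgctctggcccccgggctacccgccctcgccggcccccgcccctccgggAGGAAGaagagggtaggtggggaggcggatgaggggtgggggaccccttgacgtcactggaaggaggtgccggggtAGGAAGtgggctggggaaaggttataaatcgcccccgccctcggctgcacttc
Vegfa promoter: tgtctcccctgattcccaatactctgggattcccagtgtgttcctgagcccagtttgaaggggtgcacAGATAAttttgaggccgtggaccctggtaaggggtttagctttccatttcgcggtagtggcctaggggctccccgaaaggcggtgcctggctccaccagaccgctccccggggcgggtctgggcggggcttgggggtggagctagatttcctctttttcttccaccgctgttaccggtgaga
The Kdr window held none of the words, the Flt1 window held 2 Ets words and the Vegfa window held 1 GATA word. Over the 12 windows of the family, 3 held a GATA word, 2 an Ets word and 1 the hypoxia core. The hypoxia core lay in a second window of Vegfa, at chr17:46025164-46025413. That window is downstream of the Vegfa start shown above, at another annotated start inside the gene, and may not be a promoter. The shares over all 32851 windows of this length were 26.5% for GATA words, 39.2% for Ets words and 16.6% for the hypoxia core. A word in a window is no measure of binding.

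Across the series, Gata2 averaged 2.42 ± 0.38 lower in mutants (log2 ± SE, adjusted p = 0.0947, limma), with levels between -1.27 and -0.15 on the mutant arrays and between 0.89 and 2.00 on the wild type arrays, so the groups did not overlap. All 15 pan-endothelial markers were well above background on all 8 arrays, and Pecam1, which encodes CD31, averaged 3.19 in mutants and 2.97 in wild types. The median level of those 15 markers, called the pan-endothelial level here, was 5.43, 5.26, 4.45 and 4.05 in mutants 1 to 4, against 5.25, 4.50, 3.46 and 4.45 in wild types 1 to 4. Platelet and megakaryocyte markers (10 genes, 3 past the threshold; Pf4, not one of them, -2.75 at an adjusted p of 0.0864) and granulocyte and mast cell markers (8 genes, 4 past the threshold, Mpo -4.88) had negative changes for 10 of 10 and 7 of 8 genes, with list levels from -1.78 to -0.19 on mutant arrays against 1.29 to 2.44 on wild type arrays for the first list, and from -3.32 to -1.92 against 0.16 to 1.01 for the second. Mutant 4, wild type 2 and wild type 3 had the highest scores on the first principal component (58.4% of the variance), at 133, 105 and 169. Wild type 4 lay between them and the other arrays, at 26.5, and those ran from -138 to -60.9. The spread of log2 intensities within an array, as its interquartile range, ran from 2.91 on mutant 4 to 4.39 on mutant 2. It was 3.69 on wild type 2 and 3.56 on wild type 4. Nothing in the labels says that mutant 4, wild type 2 and wild type 3 were handled differently. Correlation between arrays was 0.891 to 0.980.

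No probe of the family passed the test between genotypes. Of the 15 tested probes, 0 passed an adjusted p of 0.05, against 16 of 48099 probes on the whole array (0.0333%), all 16 of them lower in mutants (with the authors' deposited log2 values 54 passed, 13 of them higher). The lowest adjusted p in the family was 0.717. At an unadjusted p under 0.05 there were also 0 of 15, against 2.97% of all probes, and for 0 of 15 did the 2 groups fail to overlap, against 1.08%. The change was positive for 12 of 15 probes, against 54% of all probes, with a median of 0.29 in the family and 0.078 over all probes (log2, mutant minus wild type). This has to be read by brightness, because probes as bright as Kdr also had a positive median change, of 0.42. The standard errors of the 15 changes ran from 0.30 to 0.54, and their 95% intervals together reached from -1.49 to 1.64. That is the range of differences left in a model without litter. The standard errors are those of limma, which borrow spread from all probes and so differ from those of the 4 arrays a group alone. Each of these standard errors was smaller with litter as a block, as 0.30 in place of 0.54 for Kdr probe 1. With litter as a block, 0 of 15 passed (0% of all probes passed) and the lowest adjusted p was 0.558, while 2338 of all probes had an unadjusted p under 0.05 in that limma fit.

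**Figure D1:**
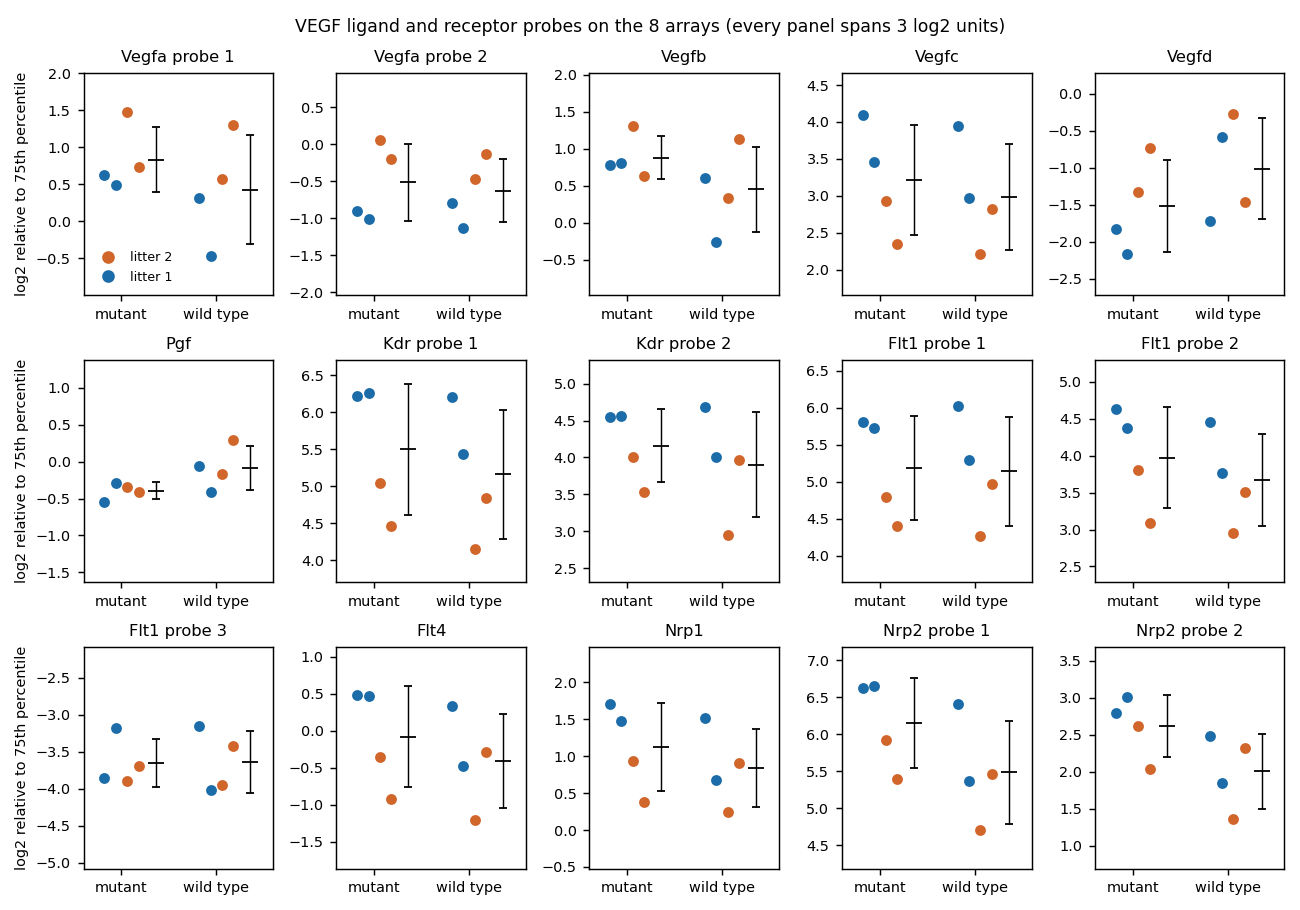
Level of each tested probe (log2 relative to the array's 75th percentile, y axis) on the 4 mutant arrays (left) and the 4 wild type arrays (right), coloured by litter, with the mean ± SD of each genotype beside the points. The genotypes overlap in every panel, and Kdr probe 1, Flt1 probe 1 and Vegfc lie lower in litter 2 than in litter 1, without overlap, while Vegfa probe 2 lies higher.

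Among the ligands, Vegfa was read by a pair of probes. Vegfa probe 1 had levels of 0.63, 0.49, 1.48 and 0.73 in mutants 1 to 4, against 0.32, -0.48, 0.57 and 1.30 in wild types 1 to 4. The change was 0.40 ± 0.42 (SE, adjusted p = 0.717), or 1.32-fold with a 95% interval of 0.692 to 2.53. The genotypes overlapped, the lowest value being that of wild type 2 and the highest that of mutant 3. Vegfa probe 2 had levels of -0.91, -1.01, 0.05 and -0.19 in mutants, against -0.79, -1.13, -0.46 and -0.14 in wild types, a change of 0.11 ± 0.37 (adjusted p = 0.880). Both probes gave overlapping groups, and probes of like brightness had median changes of 0.31 and 0.12.

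Vegfb, which encodes a ligand of VEGFR1, had levels of 0.79, 0.81, 1.30 and 0.63 in mutants, against 0.61, -0.26, 0.34 and 1.13 in wild types. The change was 0.43 ± 0.37 (adjusted p = 0.717), or 1.35-fold, with wild type 2 again the lowest array. Vegfc, which encodes the main lymphatic growth factor, had levels of 4.10, 3.46, 2.94 and 2.35 in mutants, against 3.95, 2.97, 2.22 and 2.82 in wild types. Its change was 0.22 ± 0.48 (adjusted p = 0.817), and within each genotype the litter 1 arrays lay above the litter 2 arrays. Pgf, which encodes placental growth factor, averaged -0.40 ± 0.12 in mutants and -0.085 ± 0.29 in wild types (SD, n = 4 each), a change of -0.31 ± 0.30 (SE, adjusted p = 0.717), with mutants between -0.55 and -0.29 and wild types between -0.41 and 0.30.

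Vegfd, an X-linked gene whose product also acts on VEGFR3, had levels of -1.83, -2.17, -1.32 and -0.74 in mutants, against -1.72, -0.59, -0.28 and -1.46 in wild types. The change was -0.51 ± 0.44 (adjusted p = 0.717), or 0.705-fold with a 95% interval of 0.357 to 1.39, and the groups overlapped. It was -0.85 within litter 1 and -0.16 within litter 2. Xist, the RNA of the inactive X chromosome, was between 0.29 and 1.48 on the mutant arrays, -0.27 and 0.25 on wild types 2 and 3, and -6.74 and -6.92 on wild types 1 and 4. Uty, a Y-linked gene, had levels of -5.27, -3.49, -5.05 and -2.11 in mutants, against -3.99, -2.43, -2.60 and -3.92 in wild types. The low Xist level was seen on wild types 1 and 4 only, so Xist was not balanced between the genotypes. Read by Xist alone, sex would be unbalanced between the genotypes as well. The labels give no sex, and the dim Uty probe, which did not divide the arrays as Xist did, does not settle it. The part of sex in the values of Vegfd or of any other probe was not tested.

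Among the receptor kinases, Kdr probe 1 had levels of 6.22, 6.25, 5.05 and 4.46 in mutants, against 6.21, 5.44, 4.15 and 4.84 in wild types. The change was 0.33 ± 0.54 (SE, adjusted p = 0.769), or 1.26-fold with a 95% interval of 0.551 to 2.89. The genotypes overlapped, and all litter 1 arrays lay above all litter 2 arrays. Kdr probe 2 had levels of 4.55, 4.56, 4.00 and 3.53 in mutants, against 4.68, 4.00, 2.95 and 3.97 in wild types, a change of 0.26 ± 0.43 (adjusted p = 0.774). Probes of like brightness had a median change of 0.42 for both.

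Flt1 probe 1 had levels of 5.81, 5.73, 4.80 and 4.40 in mutants, against 6.03, 5.30, 4.26 and 4.97 in wild types. The change was 0.045 ± 0.47 (adjusted p = 0.965), where probes of like brightness had a median of 0.42. Flt1 probe 2 had levels of 4.63, 4.37, 3.81 and 3.08 in mutants, against 4.45, 3.76, 2.95 and 3.51 in wild types, a change of 0.31 ± 0.44 (adjusted p = 0.749). Flt1 probe 3 was dim, with processed intensities of 79.1 to 120.0 on mutant arrays and 88.3 to 160.1 on wild type arrays, and changed by -0.016 ± 0.34 (adjusted p = 0.983). All 3 probes overlapped between genotypes. Flt4, which encodes VEGFR3, had levels of 0.48, 0.47, -0.36 and -0.92 in mutants, against 0.34, -0.48, -1.21 and -0.29 in wild types, a change of 0.33 ± 0.45 (adjusted p = 0.740).

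Nrp2, whose product is a co-receptor for VEGF-C, had the highest point estimates of the family on the scale of the 75th percentile, but not under quantile normalization (0.24 and 0.30 for its probes 1 and 2, against 0.36 for Vegfb and 0.35 for Flt4). Nrp2 probe 1 had levels of 6.62, 6.65, 5.92 and 5.39 in mutants, against 6.40, 5.37, 4.71 and 5.47 in wild types. The change was 0.66 ± 0.44 (SE, unadjusted p = 0.165, adjusted p = 0.717), or 1.58-fold with a 95% interval of 0.802 to 3.11. Nrp2 probe 2 had levels of 2.80, 3.02, 2.62 and 2.04 in mutants, against 2.48, 1.85, 1.36 and 2.33 in wild types, a change of 0.61 ± 0.37 (unadjusted p = 0.125, adjusted p = 0.717), or 1.53-fold. The 2 probes had 95% intervals that held 0, and neither passed the test. Their changes were 0.75 and 0.74 within litter 1 and 0.57 and 0.49 within litter 2, and probes of like brightness had medians of 0.44 and 0.38. Nrp1, which encodes a co-receptor for VEGF-A, had levels of 1.71, 1.47, 0.94 and 0.38 in mutants, against 1.51, 0.68, 0.25 and 0.90 in wild types, a change of 0.29 ± 0.40 (adjusted p = 0.744). Without mutant 4 and wild types 2 and 3, the changes of Nrp2 probes 1 and 2 were 0.46 and 0.41, and without wild type 3 alone each was 0.40.

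**Figure D2:**
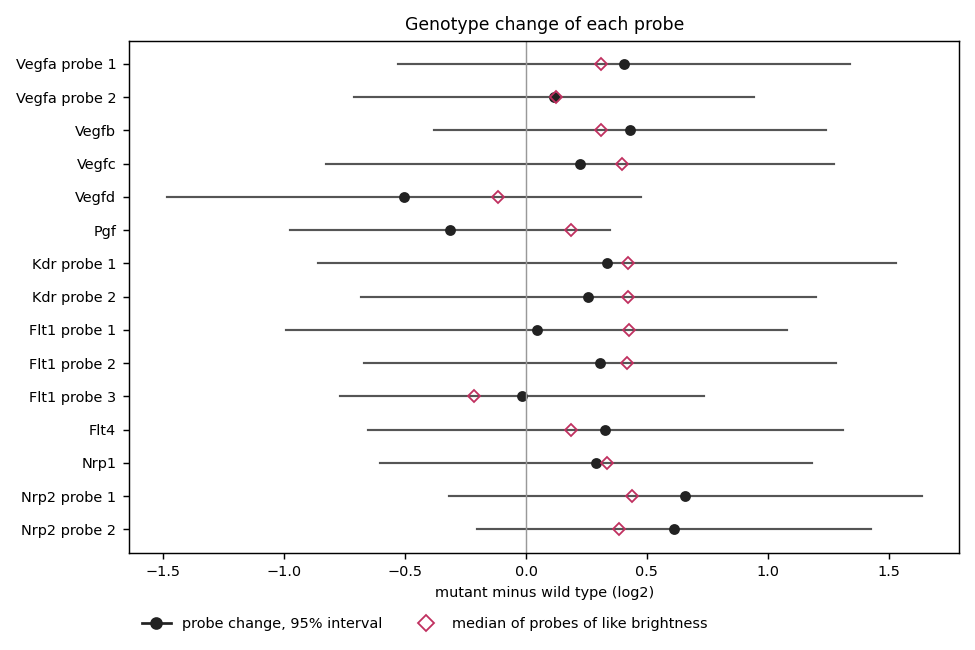
Change of each tested probe between genotypes (mutant minus wild type, log2, x axis; dot and 95% interval from limma) and the median change of probes within 0.5 log2 units of its mean level (open diamond). Every interval holds 0, and the diamonds of the brighter probes (all but Flt1 probe 3, Vegfa probe 2, Vegfd, Pgf and Flt4) lie between 0.31 and 0.44.

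Kdr probe 1 was lower in litter 2, and it was the 1 probe of 15 to pass the test for a litter difference. Over the whole array 2488 of 48099 probes passed (5.17%), a share close to 1 in 15. Of these, 474 were lower (0.985% of all probes) and 2014 higher (4.19%) in litter 2. Kdr probe 1 had levels of 5.05, 4.46, 4.15 and 4.84 in litter 2 (mutants 3 and 4, then wild types 3 and 4), against 6.22, 6.25, 6.21 and 5.44 in litter 1. The litters did not overlap, and litter 2 was lower by 1.40 on the log2 scale, as -1.40 ± 0.30 (SE, adjusted p = 0.0359), or 2.64-fold lower. This call was lost on leaving out any 1 array other than wild type 2 (adjusted p 0.0565 to 0.132), while the difference stayed between -1.26 and -1.57. Probes as bright as Kdr probe 1 had a median litter difference of -0.62.

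Flt1 probe 1 differed by -1.11 ± 0.30 (adjusted p = 0.0621) and Vegfc by -1.04 ± 0.33 (adjusted p = 0.100), with no overlap between litters for either. Kdr probe 2 differed by -0.83 (adjusted p = 0.144), Flt1 probe 2 by -0.96 (0.0954), Flt4 by -0.90 (0.135), Nrp2 probe 1 by -0.89 (0.134) and Nrp1 by -0.73 (0.182). None of these passed the test. Vegfa lay the other way, at 0.78 ± 0.33 for probe 1 (adjusted p = 0.171) and 0.77 ± 0.25 for probe 2 (adjusted p = 0.103), and probe 2 did not overlap between litters. At an unadjusted p under 0.05 there were 10 of 15 probes, against 26.5% of all probes, and 4 of 15 (Kdr probe 1, Flt1 probe 1, Vegfc and Vegfa probe 2) did not overlap, against 14.1%.

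The arrays of a litter shared a slide and a scan, so litter, slide and scan cannot be told apart. Other cell markers moved with litter as well. All 15 pan-endothelial markers were lower in litter 2, 4 of them past the test, with a median of -0.97, and their level was 4.45, 4.05, 3.46 and 4.45 in litter 2, against 5.43, 5.26, 5.25 and 4.50 in litter 1. Macrophage markers were higher in litter 2 for 10 of 10 genes, 6 past the test, among them Csf1r at 1.31, and erythroid markers for 8 of 8 genes, 4 past the test. In bulk RNA, fewer cells of a type and less RNA per cell cannot be told apart. Relative to the pan-endothelial level, Kdr probe 1 differed between litters by -0.39 (adjusted p = 0.0538) and Flt1 probe 1 by -0.099 (adjusted p = 0.487). Neither passed the test on that scale, where most probes of the whole array did, as counted in the closing section.

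For 0 of 15 probes did a difference of the genotype effect between litters pass the test of the interaction (0% of all probes passed, with 599 at an unadjusted p under 0.05 in limma). The lowest unadjusted p was 0.425, for Vegfd. The changes had the same sign in both litters for 13 of 15 probes. The share over all probes is not given here, and many of the 15 varied together over the arrays, so this count is a description only.

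**Figure D3:**
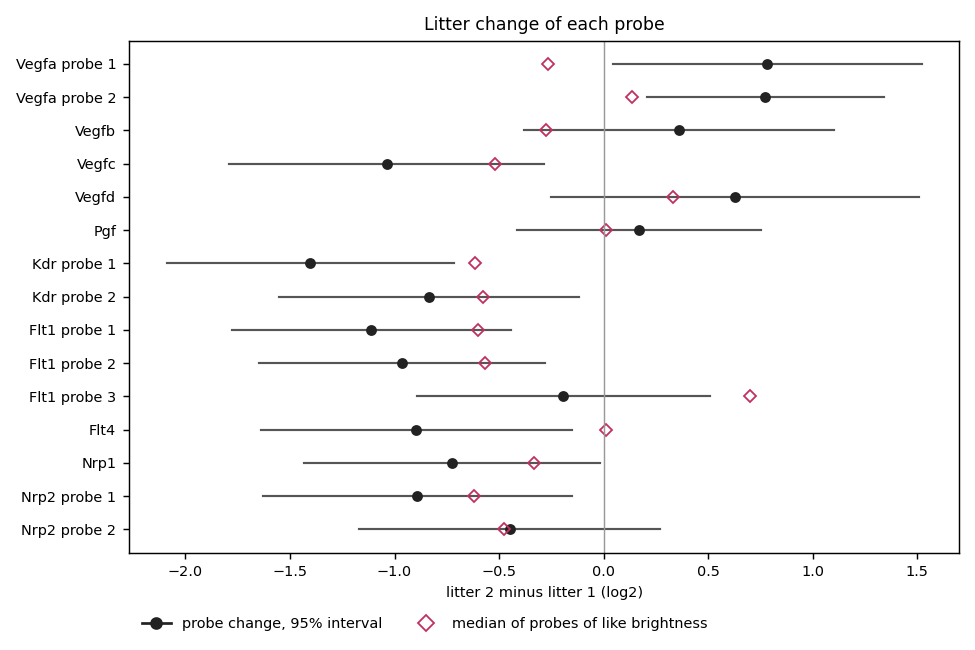
Difference of each tested probe between litters (litter 2 minus litter 1, log2, x axis; dot and 95% interval from limma with genotype in the model) and the median difference of probes of like brightness (open diamond). Kdr probe 1 lies farthest to the left at -1.40, and both Vegfa probes lie to the right of 0.

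Most receptor probes followed the endothelial markers across arrays. Over the 8 arrays, 9 of the 15 probes (Vegfc, both Kdr probes, Flt1 probes 1 and 2, Flt4, Nrp1 and Nrp2 probes 1 and 2) had a Pearson r above 0.8 with the pan-endothelial level, from 0.863 to 0.986, against 22.9% of all probes. Spearman's rho for these was 0.738 to 0.952, and after adjustment over the 15 relations the exact permutation p of r was at most 0.00975 and that of rho at most 0.0688, the highest being that of Nrp2 probe 2. Without the 2 arrays farthest from the median level (mutant 1 and wild type 3), r was 0.680 to 0.989, again lowest for Nrp2 probe 2, and within litters 0.878 to 0.971. All points share the array's scaling and its spread of intensities, and these values describe the arrays only. The shares of all probes take in probes of every brightness, and none is given for probes of like brightness. Several of the 9 probes read the same gene, so they are not 9 separate genes.

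Relative to the pan-endothelial level, the range over the 8 arrays was smaller for the same 9 probes, against 23.1% of all probes. It was larger for the other 6, among them Flt1 probe 3 (1.87 in place of 0.87). The range was 0.31 in place of 1.69 for Flt4 and 0.44 in place of 1.73 for Kdr probe 2. For Kdr probe 1 it was 0.60 in place of 2.10, and for Vegfc 0.57 in place of 1.88. The smaller range restates the correlation, since these 9 probes were picked for following that level, and it is no separate result. Vegfa and Vegfb behaved otherwise. Pooled over arrays, Vegfa probe 1 had r = -0.143 (exact permutation p adjusted over the 15 relations 0.742; rho = -0.381, adjusted p = 0.415) and Vegfb r = 0.211 (0.720; rho = 0.119, adjusted p = 0.793), whereas within litters the values were 0.946 and 0.959. Without the 2 farthest arrays the pooled values were -0.277 and -0.0062. Vegfd ran against the endothelial level, as did 13.7% of all probes with r under -0.8, with r = -0.891 (adjusted p = 0.00781), rho = -0.833 (adjusted p = 0.0288), r = -0.815 without the 2 farthest arrays and -0.938 within litters.

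**Figure D4:**
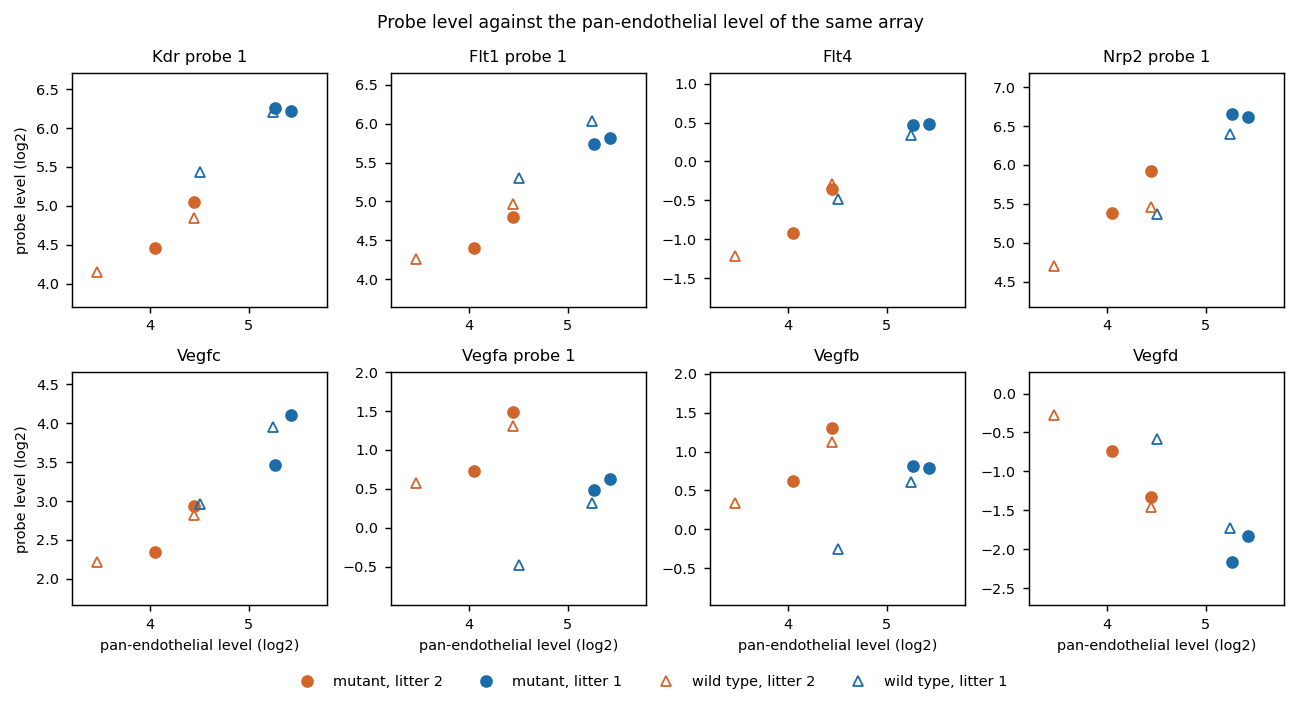
Level of 8 probes (log2, y axis; every panel spans the same number of units) against the pan-endothelial level of the same array (log2, x axis), with filled circles for mutants, open triangles for wild types and colours for litters. Kdr, Flt1, Flt4, Nrp2 and Vegfc rise along the axis, Vegfd falls, and Vegfa and Vegfb form a separate line in each litter.

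Relative to the pan-endothelial level, 1 of 15 probes did not overlap between genotypes, against 0.518% of all probes (0.374% lower in mutants). It was Flt1 probe 1, singled out after its values were seen, with 0.38, 0.47, 0.35 and 0.35 in mutants 1 to 4, against 0.78, 0.80, 0.81 and 0.53 in wild types 1 to 4. The mutants were the 4 lowest arrays, and the difference was -0.34, given as a description. In the limma fit of all probes on this scale its adjusted p was 1.00, and 0 probes passed (294 at an unadjusted p under 0.05). Flt1 probe 2, at another place of the gene, differed by -0.077 with overlapping groups. Under quantile normalization Flt1 probe 1 changed by -0.34 and Flt1 probe 2 by -0.094, and on the scale of the 75th percentile their changes were 0.045 and 0.31. Nrp2 probe 1 lay on the other side on the endothelial scale, with 1.19, 1.39, 1.47 and 1.34 in mutants, against 1.15, 0.87, 1.25 and 1.02 in wild types, a difference of 0.28 with overlap. Kdr differed there by -0.049 for probe 1 and -0.126 for probe 2, with overlap.

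The genes whose levels over the 8 arrays were most like those of Kdr, by Pearson's r on the brightest probe of each gene, were Mansc1, Ramp2, Dolpp1, Mrtfb and Poc1b, with r between 0.996 and 0.998. Such values were common, since 2904 of 21177 genes had r above 0.9 with Kdr. For Flt1 they were St3gal6, Lpar6, Lifr, Bloc1s3 and Tbc1d22a (0.993 to 0.998, with 1644 genes above 0.9), and for Vegfa they were Tenm4, Fzd2, Ntn3, Crabp1 and Iglon5 (0.983 to 0.990, with 576 genes above 0.9). Within the family, Flt4 and Nrp1 were the pair most alike when pooled over arrays (r = 0.988), followed by Vegfc with Flt1 probe 2 and Kdr probe 1 with Flt1 probe 1 (0.980 each), and Vegfa probe 1 and Vegfb had r = 0.931. Within litters the order was another, with 0.991 for Vegfb with Kdr probe 1 and for Vegfa probe 1 with Vegfb, and 0.976 for Flt4 with Nrp1. These are descriptions over arrays that share litters and scaling.

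The wider pathway was described by 7 lists of 94 genes in all. None of the 94 passed the test between genotypes, with 3 at an unadjusted p under 0.05, against 3.32% of all 21504 named genes, and 70 positive changes, against 62.2% of those genes. The median was 0.31 in the lists and 0.21 over all named genes. In signal transduction below the receptors (25 genes, median 0.31), Cdc42, a small GTPase of cell shape, changed by 0.38 ± 0.40 and Nos3, the endothelial nitric oxide synthase, by 0.08 ± 0.43. Among genes known to respond to VEGF (15 genes, median 0.29), the immediate early genes Nr4a1 and Egr1 changed by 0.26 ± 0.31 and 0.12 ± 0.38. None of these 4 passed the test. In oxygen sensing (9 genes, median 0.42), Epas1, which encodes HIF-2 alpha, changed by 0.39 ± 0.43 and the prolyl hydroxylase gene Egln2 by 0.36 ± 0.37, both short of the test.

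Among neuropilin partners (12 genes, median 0.23), the semaphorin receptor gene Plxnd1 changed by 0.55 ± 0.44 and Sema3f by 0.31 ± 0.36. In the list of VEGF-C processing and lymphatic partners (10 genes, median 0.34), the transcription factor gene Sox18 changed by 0.33 ± 0.52 and Pdpn, which encodes podoplanin, by -0.25 ± 0.35. Of the related receptor kinases and ligands (9 genes, median 0.086), Pdgfb changed by 0.32 ± 0.51 and Csf1r, the macrophage growth factor receptor, by -0.23 ± 0.51. Each of these 6 missed the test. Of receptor partners and trafficking genes (14 genes, median 0.19), Epn1, an endocytic adaptor, changed by 0.39 ± 0.37 and Cdh5, which encodes VE-cadherin, by 0.51 ± 0.55. The lowest adjusted p of the 94 was that of Itgb3 in the same list, at 0.0864, with a change of -3.44 ± 0.52 and no overlap. Adamts14, of the VEGF-C processing list, did not overlap either, with a change of 0.89 ± 0.33 (adjusted p = 0.717). Itgb3 is also a gene of the platelet list, in which 10 of 10 genes were lower in mutants, with a median of -2.77. The part of platelet RNA in the Itgb3 value was not tested.

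**Figure D5:**
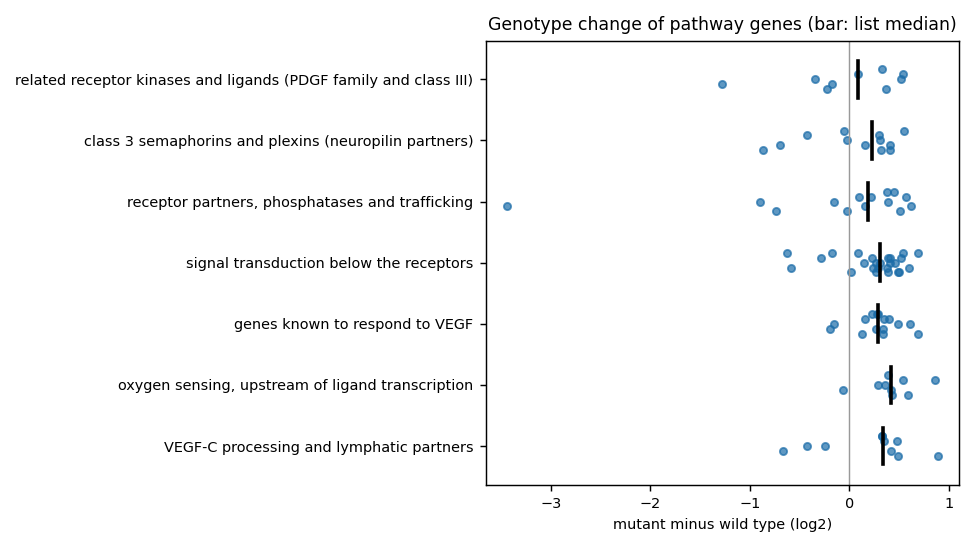
Change between genotypes (mutant minus wild type, log2, x axis) of each gene of the 7 pathway lists (dots, brightest probe per gene) with the median of each list (bar). List medians lie between 0.086 and 0.42, and Itgb3 stands alone at -3.44.

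Between litters, 10 of the 94 passed, 4 higher and 6 lower in litter 2, against 3.92% of all named genes. Lower in litter 2 were Cdh5 (-1.44), the pericyte-recruiting ligand gene Pdgfb (-1.31) and the Src-family kinase gene Yes1 (-1.17). So were 3 VEGF response genes, Aplnr (-1.48), Igfbp3 (-1.47) and Plau (-1.59). The full list of 15 VEGF response genes had a median of -0.053, with 9 genes negative, against -0.97 for the pan-endothelial markers. Higher in litter 2 were Csf1r (1.31), Flt3 (1.16), the phosphatase gene Ptpn6 (1.12) and Sema3c (1.33).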

How the data were processed

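RNA of 8 embryos (4 mutant, 4 wild type) was read on 1 one-colour array each. The deposited scanner files give a linear intensity per spot. Per the file headers, the authors' software was Agilent Feature Extraction 10.7.3.1 with mm9 annotation, and it had subtracted background and removed trends within an array. The authors' deposited table gives log2 values, a log2 fold change, a p-value and 2 limma scores (t and log odds) per probe. The limma step there is per the submitters' processing notes. That table holds 50120 probes, not Vegfd, and served as an alternative.

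Each probe's log2 processed intensity (outlier and control spots omitted, repeated spots averaged) was set relative to the 75th percentile of its array. A probe was kept (48099 were) if it was well above background on 4 or more of the 8 arrays and had at least 3 values per group. Differences were tested by probe with limma 3.58.1 in R 4.3.3 (two-sided, Benjamini-Hochberg over all kept probes, threshold 0.05), with genotype alone as the main model and litter added for the litter difference. The litter block comes from the labels, which give a shared litter, and it changed no call in the family. Sample numbers did not pair the arrays. A probe named Nrp for another gene was left out. Of simulated probes with the real means and spreads (47311), 0 of 67 changed by 1 log2 unit were recovered for genotype, 9 of 67 (13.4%) changed by 2 and 39 of 66 (59.1%) changed by 3. The number of arrays limits the precision. The p-values of the main genotype model measure the spread between embryos, with the difference between the litters in it. Those of the litter test measure the spread between embryos of a litter, and not that between litters.

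The family, the pathway and marker lists and the tests were chosen with earlier results of these data known. The text names every probe of the family, in each pathway list the genes past the threshold (up to 4) or otherwise the 2 brightest, Gata2, the first gene of marker lists it uses, and the 5 genes most like Kdr, Flt1 and Vegfa. Itgb3, Adamts14 and Uty fall outside that rule and were chosen with their values in view. The sequences of the Vegfa probes are not reported here.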

Additional observations from a re-analysis of the deposited data

How the results depend on the processing

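Over 354 changes of a family probe between genotypes under other settings, 308 kept their direction and their side of the threshold, 43 turned in direction and 3 passed the threshold, all 3 with array weights (Nrp2 probe 1 at 1.18, Nrp2 probe 2 at 0.97 and Vegfd at -1.11), a setting that called 15730 probes in all, 5593 of them higher. Over 294 litter differences, 250 kept both, 11 turned, 25 passed and 8 no longer passed, the last all for Kdr probe 1. The cause of these moves was not tested.

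The count of probes called between genotypes, 16, was 0 with litter as replicate block and 0 with sample number as replicate block, where same-numbered arrays of the 2 genotypes had correlations of 0.62, -0.032, -0.081 and -0.15. It was 1 with quantile normalization, 0 when centred on the pan-endothelial level, 42 with normexp background correction at the 75th percentile, 5 with normexp and quantile normalization, 8 with no filter, 29 with probes well above background on all 8 arrays, 54 with the authors' deposited log2 values (13 of them higher), 0 without wild type 2, wild type 3 and mutant 4, and 0 to 23 without each replicate in turn. The count called between litters, 2488, was 860 with quantile normalization, 1247 with median scaling, 25809 when centred on the pan-endothelial level, 1474 and 1441 with normexp at the 75th percentile and with quantile normalization, 13139 with array weights, 7481 without the 3 arrays, and 86 to 5428 without each replicate in turn. The interaction count was 4 with the authors' deposited log2 values and 0 without each replicate. In the genotype fit of the deposited values every family probe had the same standard error, 0.55. Among these probes that fit ranks by the size of the change alone.

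Signs of small genotype changes depended on the scaling. Quantile normalization gave -0.075 for Kdr probe 1, -0.13 for Kdr probe 2, -0.34 for Flt1 probe 1, -0.094 for Flt1 probe 2, 0.090 for Flt1 probe 3 and -0.13 for Vegfc, and with normexp before it these were -0.081, -0.15, -0.34, -0.081, 0.10 and -0.14. Centred on the pan-endothelial level, Kdr probe 1 was -0.049, Kdr probe 2 -0.13, Flt1 probe 1 -0.34, Flt1 probe 2 -0.077, Flt4 -0.055, Nrp1 -0.095, Vegfc -0.16 and Vegfa probe 2 -0.27. Flt1 probe 3 was 0.25 with median scaling and with the deposited values, 0.11 with normexp at the 75th percentile, 0.26 with array weights and 0.069 within litter 1, Flt1 probe 1 was -0.020 within litter 2, and Vegfa probe 2 was -0.046 with array weights. Without the 3 arrays Vegfa probe 2 was -0.16 and Flt1 probe 1 -0.052. Without each replicate, the ranges that crossed 0 were -0.25 to 0.34 for Flt1 probe 1, -0.18 to 0.15 for Flt1 probe 3, -0.00087 to 0.68 for Kdr probe 1, -0.059 to 0.52 for Kdr probe 2, -0.074 to 0.28 for Vegfa probe 2 and -0.073 to 0.54 for Vegfc. The others kept their sign, but moved by over 1.5 times. Leaving out wild type 3 gave 0.061 for Flt4, 0.092 for Nrp1, 0.068 for Flt1 probe 2, -0.26 for Vegfd and 0.40 for each of Nrp2 probes 1 and 2, leaving out wild type 2 gave 0.10 for Vegfa probe 1 and 0.19 for Vegfb, and leaving out wild type 4 gave -0.19 for Pgf. Their highest values were 0.61 for Flt4, 0.54 for Nrp1, 0.60 for Flt1 probe 2, 0.96 and 0.80 for Nrp2 probes 1 and 2, 0.70 for Vegfa probe 1 and 0.65 for Vegfb, and the lowest were -0.76 for Vegfd and -0.42 for Pgf.

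Between litters, centring on the pan-endothelial level gave 0.12 for Flt4, 0.29 for Nrp1, 0.82 for Flt1 probe 3, 0.18 for Kdr probe 2, 0.12 for Nrp2 probe 1, 0.048 for Flt1 probe 2 and 0.56 for Nrp2 probe 2, and median scaling and the deposited values each gave -0.11 for Vegfb and -0.30 for Pgf. The median change of all probes between genotypes was 0.34 with median scaling and -0.30 on the pan-endothelial scale.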
